A study of Mus musculus with 12 samples.

Results

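The microRNAs miR-192, miR-194 and miR-215 are made from a pair of duplicated hairpin clusters, and their 7 mature arms were followed here in the livers of 6 male and 6 female mice. The members were taken by name: mmu-miR-192-5p, mmu-miR-192-3p, mmu-miR-194-5p, mmu-miR-194-1-3p, mmu-miR-194-2-3p, mmu-miR-215-5p and mmu-miR-215-3p, which is 7 of the 1906 mature microRNA names in the count table. The species prefix is left out from here on. Small RNA was sequenced from the total RNA of flash-frozen livers, 1 library per liver. All animals were of the outbred stock Crl:CD1(ICR), 8 weeks old, and carried no stated treatment or genetic change. Sex was the only difference between the groups that the labels state. The library numbers run through the males and then the females, so sex and library order cannot be told apart. The labels do not say that the livers were handled in batches, nor whether animals were littermates, and each p-value refers only to the spread among these animals.

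A microRNA hairpin is cut into a duplex of a 5p and a 3p arm, and usually only the arm called the guide stays in the silencing complex. The guide finds its targets mainly through its seed, the bases from position 2 to position 8. In mouse, each of the clusters pairs a miR-194 hairpin with a partner that carries a shared seed, miR-192 in the first and miR-215 in the second. miR-192 and miR-194 are abundant in the epithelia of liver, intestine and kidney, and miR-192 released from injured hepatocytes is measured in mouse plasma as a sign of liver damage. In human cells, miR-192, miR-194 and miR-215 are also known as targets of the tumour suppressor p53.

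The mature sequences are shown because the arms divide by seed. All 7 members matched an entry of the RefSeq microRNA table (GRCm38.p6). They are written 5′ to 3′ with the seed in capitals.
miR-192-5p: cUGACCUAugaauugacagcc
miR-215-5p: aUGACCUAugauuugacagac
miR-194-5p: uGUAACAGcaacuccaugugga
miR-192-3p: cUGCCAAUuccauaggucacag
miR-215-3p: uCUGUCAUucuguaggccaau
miR-194-1-3p: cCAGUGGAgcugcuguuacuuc
miR-194-2-3p: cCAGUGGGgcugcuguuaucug
miR-192-5p and miR-215-5p held the same seed and differed at 3 of 21 positions outside it, namely C1A, A12U and C20A, counted from 1 at the 5′ end with the base of miR-192-5p first. The 3p arms of the 2 miR-194 hairpins differed at 4 of 22 positions, A8G, C19U, U20C and C22G, with miR-194-1-3p first, so that their seeds differed in the last base. The 7 members thus held 6 distinct seeds. Among 1679 mature sequences of the RefSeq table, the seed of miR-192-5p and miR-215-5p stood in no other microRNA, and that of miR-194-5p in none. The seed of miR-194-2-3p was shared by miR-7055-5p and miR-6926-5p, which had 0 counts in every liver.

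The table lists the members at 8 loci of the mm9 build. On chromosome 19 it places miR-194-5p at 6264658 to 6264679, miR-194-2-3p at 6264694 to 6264715, miR-192-5p at 6264857 to 6264877 and miR-192-3p at 6264900 to 6264921. On chromosome 1 it places miR-194-5p at 187137204 to 187137225, miR-194-1-3p at 187137239 to 187137260, miR-215-5p at 187137489 to 187137509 and miR-215-3p at 187137526 to 187137546. From the start of miR-194-5p to that of its partner are 199 bases on chromosome 19 and 285 bases on chromosome 1. No other listed locus overlapped a member, and no other microRNA stood within 10 kb. In the GENCODE annotation of GRCm38, Mir194-1 and Mir215 lay inside Iars2, on the opposite strand and outside its exons. They also lay within the antisense gene 2010103J01Rik, where Mir215 overlapped an exon. Mir194-2 and Mir192 lay in no annotated gene other than their own, and the nearest other gene to Mir194-2 was Atg2a, at 2308 bases.

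miR-194-5p is identical in both hairpins, so only bases beyond the mature arm can place a read at either locus. The hairpins are shown for this reason, with the mature arms in capitals (GRCm38.p6, both on the plus strand, at chr1:185313319-185313385 and chr19:6264643-6264728).
Mir194-1: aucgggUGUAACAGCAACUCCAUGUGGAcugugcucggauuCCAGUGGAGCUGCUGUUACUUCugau
Mir194-2: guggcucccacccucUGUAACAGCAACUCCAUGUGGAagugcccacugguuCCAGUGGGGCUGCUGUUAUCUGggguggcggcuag
The base before miR-194-5p is G in Mir194-1 and C in Mir194-2, and the base after it is C in Mir194-1 and A in Mir194-2.

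Libraries held from 2953955 to 5516430 microRNA counts, so that 3 counts, the most that a true level may hide behind a count of 0, amount to 0.544 to 1.02 per 1000000 counts (counting error only). Levels are given as CPM, counts per 1000000 after adjusting library sizes with the trimmed mean of M values (TMM). miR-122-5p, which defines hepatocytes, was the most abundant name, with a mean of 319017 CPM in males and 343046 CPM in females. The 15 names of the hepatocyte list all had counts. Male 1 stood apart in several members, and results that rest on it are given with and without it.

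Among the guides, miR-192-5p ranked 4th and miR-194-5p 5th of the 1906 names by mean level. All mature arms are 21 or 22 bases long and give a read per molecule, so their levels can be set side by side, apart from differences in ligation between sequences, which were not measured. Over the 12 livers miR-192-5p averaged 65716 ± 4124 CPM and miR-194-5p 27191 ± 3754 CPM (SD, n = 12 each). miR-192-5p was higher than miR-194-5p in 12 of 12 livers, and their ranges did not overlap. The next name above miR-192-5p was miR-148a-3p at 71212 ± 6405 CPM, and the next below miR-194-5p was let-7g-5p at 25987 ± 1738 CPM (SD, n = 12 each). These neighbours were not separated by the spread between livers, since miR-148a-3p was above miR-192-5p in 10 of 12 livers and miR-194-5p above let-7g-5p in 9 of 12. miR-215-5p, which shares the seed of miR-192-5p, averaged 23.9 ± 6.63 CPM (SD, n = 12) and ranked 227th. It supplied 1163 of 3163995 counts with that seed, or 0.0368% (exact Clopper-Pearson 95% interval 0.0347 to 0.0389%, counting error only).

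The passenger arms were rare beside their guides. miR-194-2-3p averaged 114 ± 9.0 CPM and miR-192-3p 28.9 ± 3.61 CPM over the 12 livers (SD, n = 12 each), and miR-194-2-3p was the higher in all 12. miR-192-3p and miR-215-5p stood next to each other in the order of levels and overlapped, with miR-192-3p higher in 9 of 12 livers. Summed over all livers, miR-192-5p outnumbered miR-192-3p by 2282-fold, the 7th most uneven pair of arms among 150 hairpins. Those hairpins had at least 100 counts in each arm, or at least 1000 counts in an arm and 10 in its opposite. Hairpins with fewer counts in the rarer arm were left out, and some of them may be more uneven. Also left out were hairpins whose arms differ in name beyond 5p and 3p, such as those of miR-194. The rank therefore holds only among the 150. miR-215-5p outnumbered miR-215-3p by 55.4-fold, on 21 counts of miR-215-3p.

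The remaining arms were at or near the floor. miR-215-3p had 8 counts in the 6 male livers and 13 in the 6 female livers, with at most 4 in a liver and 0 in 4 livers. miR-194-1-3p had 4 counts in males and 2 in females, never more than 1 in a liver, and 0 in 6 livers. Neither passed the filter on low counts, and no fold change between the sexes is given for them. Of the 3p arms of miR-194, miR-194-1-3p held 6 of 5450 counts, or 0.110% (exact Clopper-Pearson 95% interval 0.0404 to 0.239%, counting error only). The levels of all members are drawn in the plot of CPM by liver.

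**Figure D1:**
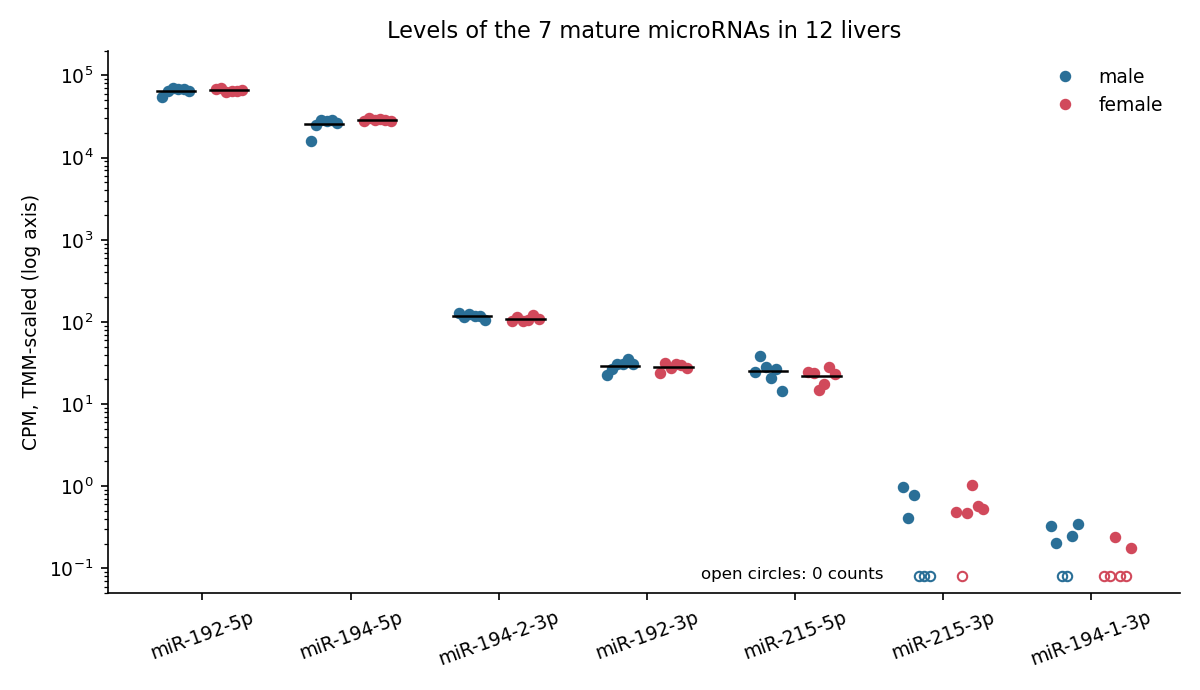
CPM (log axis, TMM-scaled) of each of the 7 mature arms in 6 male (blue, left) and 6 female (red, right) livers, 1 point per liver, with a bar at the mean where every liver has counts and open circles for livers with 0 counts. miR-192-5p and miR-194-5p lie far above the other arms, the sexes overlap in each arm, and male 1 is the low point of miR-194-5p at 16107 CPM.

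Whether the members differ between male and female livers was asked of all names together, with edgeR's quasi-likelihood test on the counts and Benjamini-Hochberg adjustment over the 419 names that passed the filter. The 5 members that passed were miR-192-5p, miR-194-5p, miR-194-2-3p, miR-192-3p and miR-215-5p. None of these 5 was called at an adjusted p under 0.05 by edgeR, none had an unadjusted p under 0.05, and DESeq2 called none of them. Over all names tested, 16.9% were called, 8.35% higher and 8.59% lower in males. With libraries scaled by total counts alone, 31.0% of the called names were higher in males, against 49.3% with TMM. Under that scaling the tested names had a median log2 fold change of -0.12, against -0.02 with TMM. The CPM of the sexes overlapped in each of the 7 members, whereas they did not overlap in 8.11% of tested names.

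miR-192-5p lay between 54819 and 69983 CPM in male livers, with a median of 66517, and between 63300 and 69938 CPM in female livers, with a median of 65488. The sexes overlapped, and the male range reached lower through male 1, with the next male at 64373 CPM. On the log2 scale, males over females came to -0.02 (standard error 0.06, 95% interval -0.14 to 0.10, adjusted p = 0.82), which corresponds to between 0.905-fold and 1.07-fold. With scaling by total counts alone, miR-192-5p had a log2 fold change of -0.131 (edgeR's quasi-likelihood test, adjusted p = 0.111). Its levels varied little, in a comparison that holds many rarer names, in which counting error is larger. The coefficient of variation of miR-192-5p was 8.47% in males and 3.79% in females, against medians of 18.6% in males and 11.6% in females over the 301 names with a mean of at least 10 CPM, and 36 of those names varied less in males and 10 in females.

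miR-194-5p, summed over its loci, lay between 16107 and 29092 CPM in male livers, with a median of 27085, and between 27668 and 30689 CPM in female livers, with a median of 28803. Of the males, 5 of 6 were below the female median, and male 1 was far below every other liver. The fitted log2 fold change came to -0.18 (standard error 0.11, 95% interval -0.43 to 0.07, adjusted p = 0.33). Without male 1 it was -0.09 (adjusted p = 0.151). The coefficient of variation of miR-194-5p was 18.8% in males and 3.83% in females.

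The 3p arms of the chromosome 19 cluster had log2 fold changes above 0 that did not pass the test. miR-194-2-3p, the passenger arm of Mir194-2, lay between 105 and 128 CPM in males (median 119) and between 103 and 121 CPM in females (median 107). The livers of the sexes overlapped, with 5 of 6 males above the female median and male 1, the lowest for miR-194-5p, the highest of all 12. The fitted log2 fold change of miR-194-2-3p came to 0.12 (standard error 0.08, 95% interval -0.05 to 0.29, adjusted p = 0.326). miR-192-3p, the passenger arm of Mir192, lay between 22.3 and 35.6 CPM in males (median 30.5) and between 23.7 and 31.5 CPM in females (median 28.9), a log2 fold change of 0.05 (95% interval -0.22 to 0.31, adjusted p = 0.82). With scaling by total counts alone it was -0.061.

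miR-215-5p, from the chromosome 1 cluster, varied most between livers among the 5 tested members. It lay between 14.5 and 38.7 CPM in males (median 25.8) and between 15 and 28.4 CPM in females (median 23.7), with male 6 lowest and male 2 highest of all livers. For miR-215-5p the fitted log2 fold change came to 0.21 (standard error 0.22, 95% interval -0.26 to 0.68, adjusted p = 0.571), so that a difference of up to 1.61-fold higher in males lay within the interval. It rested on 42 to 188 counts per male liver and 63 to 133 counts per female liver. Its coefficient of variation was 31.7% in males and 22.1% in females. The log2 fold change was 0.05 without male 2 and 0.34 without male 6.

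**Figure D2:**
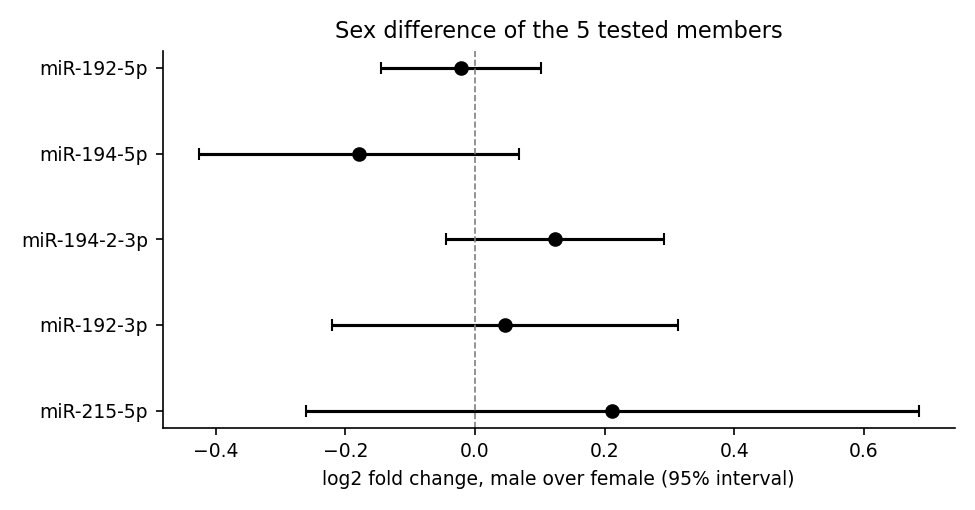
Log2 fold change of males over females (x axis) for the 5 tested members, with 95% intervals from edgeR's quasi-likelihood fit over all names and 6 livers per sex. Every interval includes 0, that of miR-192-5p being the narrowest (-0.14 to 0.10) and that of miR-215-5p the widest (-0.26 to 0.68).

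The percent of a library's counts that a member takes is scaled by the library total alone, and in that measure miR-194-5p was lower in males, a call that depended on the total and the test. It took between 1.68 and 2.89% of all microRNA counts in male livers, with a median of 2.61%, and between 2.90 and 3.25% in female livers, with a median of 2.93%. Every male liver was below every female liver, as was so for 5.97% of the 419 tested names in this measure. On average it was 2.45 ± 0.430% of counts in males and 3.00 ± 0.141% of counts in females (SD, n = 6 per sex). Males thus had 0.55 percentage points less by the exact permutation test, two-sided here and below (p = 0.00216, the smallest it can give, 0.013 after Benjamini-Hochberg adjustment over 6 shares and 0.0245 over the shares of all 419 names). By that adjustment over all names, 52 names took a lower and 23 a higher share in males. edgeR's quasi-likelihood test with scaling by total counts gave miR-194-5p a log2 fold change of -0.29 and did not call it (adjusted p = 0.0674). The difference of males minus females was -0.40 percentage points without male 1 (adjusted p = 0.013 by the same exact permutation test). All members together took 8.74 ± 0.844% of male counts and 9.89 ± 0.497% of female counts (exact permutation p = 0.013, adjusted p = 0.039). miR-192-5p took 6.28 ± 0.436% of male counts and 6.87 ± 0.392% of female counts (exact permutation p = 0.0346, adjusted p = 0.0693), which did not pass. Leaving out male 1, male 2, male 6, female 1, female 2, female 4 or female 6 ended the call of all members together, at adjusted p between 0.0519 and 0.0974 (exact permutation test).

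These differences in share changed with the total against which they were taken. The second most abundant name, miR-21a-5p, which is known to rise in fibrosis and many tumours, had a mean of 170965 CPM in male livers, against 82215 CPM in female livers. When its counts were taken from the total, miR-194-5p took 2.93 ± 0.526% of male counts and 3.28 ± 0.158% of female counts, a difference that was no longer called (exact permutation p = 0.143, adjusted p = 0.429). In that measure 3 of 6 males were below every female, and all 6 were so in 3.83% of names. miR-192-5p then took 7.51 ± 0.528% of male counts and 7.52 ± 0.435% of female counts (exact permutation p = 0.987). With miR-122-5p left out instead, every male was below every female for both guides and for 11% of names. miR-194-5p then took 3.53 ± 0.578% in males and 4.65 ± 0.220% in females, and miR-192-5p 9.07 ± 0.593% of male counts and 10.7 ± 0.467% of female counts (exact permutation p = 0.00216, adjusted p = 0.00433 over the 6 shares and 0.0171 over all names, for each). In this measure 97 names were called lower and 19 higher in males. The part of miR-21a-5p or miR-122-5p in the shares of the members was not tested.

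**Figure D3:**
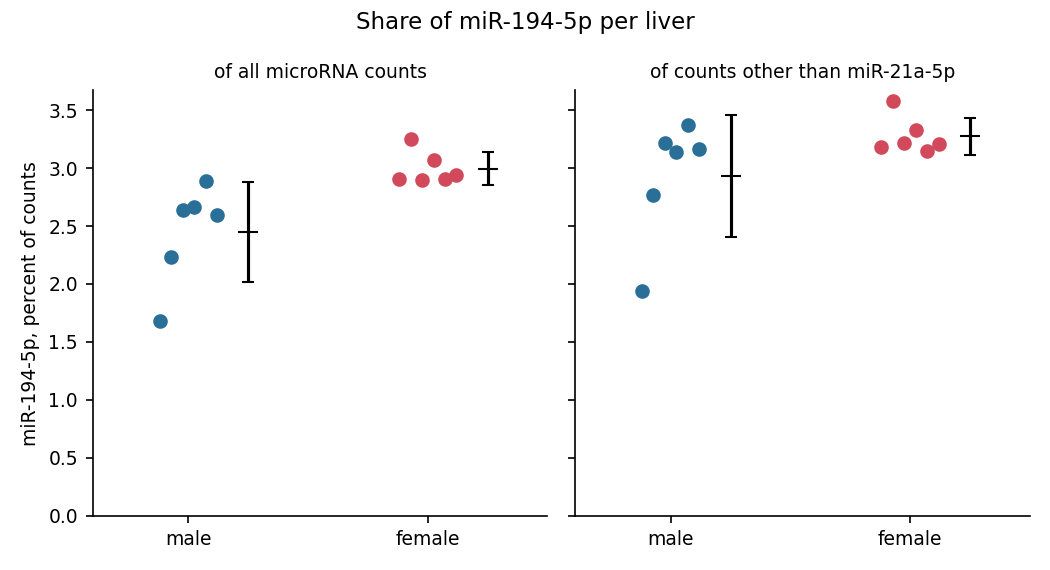
Percent of counts taken by miR-194-5p in each male (blue, left) and female (red, right) liver, with mean and SD in black, out of all microRNA counts (left panel) and out of the counts other than miR-21a-5p (right panel). In the left panel all 6 males lie below all females, and in the right panel 3 of 6 do.

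The summed level of the hepatocyte list, per 1000000 of all counts, lay between 383901 and 420261 in males and between 431331 and 467106 in females, without overlap. miR-122-5p makes up most of this sum and, taken alone, lay between 286533 and 341398 in males and between 336180 and 378875 in females, where the sexes overlapped. Without both arms of miR-122 the list lay between 75637 and 96158 in males and between 85295 and 98308 in females, again with overlap. Of its 14 tested names, 4 were called higher and 2 lower in males by edgeR's quasi-likelihood test, against 8.35% and 8.59% of all tested names. Its median log2 fold change was 0.23, against -0.02 over all tested names. The examples with the smallest p were miR-455-3p, from an intron of a collagen gene, at a log2 fold change of 1.13 (adjusted p = 0.000398), and miR-802-5p, known to impair insulin signalling in obese mice, at -1.20 (adjusted p = 0.000398). The stellate, fibroblast and smooth muscle list lay between 10434 and 17333 in males and between 16092 and 19118 in females. Beside 8.59% of all tested names, 2 of its 10 tested names were called lower in males. These were miR-143-3p, a marker of smooth muscle, at a log2 fold change of -0.34 (adjusted p = 0.0263), and miR-143-5p at -0.44 (adjusted p = 0.0273). In whole liver, fewer cells of a type and less of a microRNA per cell cannot be told apart, and the part of these lists in the shares of miR-192-5p and miR-194-5p was not tested.

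Other lists gave the background of cells and pathways in which the members are known. Their counts of calls, on few names each, stand beside 16.9% called over all tested names, 8.35% higher and 8.59% lower in males. The p53-linked list, without the members themselves, had 3 of 7 tested names lower in males and 0 higher, with a median log2 fold change of -0.34. They were miR-34a-5p, named after its values were seen and the best known p53 target among microRNAs, and both arms of miR-143, which also stand in the stellate list. The biliary and other epithelial list, which holds the miR-200 family of epithelial cells, had 0 of 13 called by edgeR, with a median of -0.15. It lay between 3346 and 9687 in males and between 5007 and 11350 in females, on the same scale, and 5 of its 23 names were at 0. The immune list had miR-142a-5p, a marker of blood cells, lower in males at -0.47 (adjusted p = 0.0256) as the only call among 7. The other arm of that hairpin, miR-142a-3p, was at -0.17 (edgeR adjusted p = 0.762), and the list had a median of -0.15. The immune list lay between 1109 and 1800 in males and between 1398 and 2035 in females. The erythroid list had 0 of 7 called. It lay between 1143 and 5181 in males and between 2595 and 3983 in females, with male 1 the highest. In this list miR-486a-5p and miR-486b-3p had identical values, as did miR-486a-3p and miR-486b-5p. Its sum and its number of names therefore hold these counts more than once. The endothelial list had 0 of 2 called and lay between 20979 and 26764 in males and between 25214 and 28513 in females. The striated muscle list had 0 of 2 called and lay between 7.07 and 126 in males and between 9.84 and 40.3 in females, and the pancreas list had 0 tested names and at most 6.32 in males and 30.7 in females.

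Ratios of members within a liver do not depend on how libraries are scaled, and 9 were compared between the sexes. None passed after adjustment over the 9, although 3 that involve miR-194-5p had an unadjusted exact p under 0.05. Another 3 rest on miR-194-1-3p or miR-215-3p, with at most 4 counts in a liver, and are not described. They still count among the 9, and the adjusted p of the other ratios depends on that number. An adjustment without them was not made.

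The ratio of miR-194-5p, summed over its loci, to miR-192-5p lay between 0.294 and 0.430 in males (median 0.402) and between 0.407 and 0.455 in females (median 0.443). Of the males, 4 of 6 were below every female, and male 1 was the lowest. On the log2 scale the ratio averaged -1.38 ± 0.198 among males and -1.20 ± 0.0639 among females (SD, n = 6 per sex), and males minus females came to -0.18 (exact permutation p = 0.0152, adjusted p = 0.0682). Without male 1 the difference was -0.10 (adjusted p = 0.0974, exact permutation test).

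The ratio of miR-194-5p to the sum of its 3p arms lay between 125 and 253 in males (median 228) and between 238 and 279 in females (median 270). All 6 males were below the female median, and 4 were below every female. On the log2 scale it averaged 7.72 ± 0.377 among males and 8.05 ± 0.0849 among females (SD, n = 6 per sex), and males minus females came to -0.33 (exact permutation p = 0.00866, adjusted p = 0.0682). Without male 1 it was -0.18 (adjusted p = 0.0974, exact permutation test). Since miR-194-5p counts are listed at both hairpins and its 3p counts almost entirely at Mir194-2, this is not the arm ratio of a defined hairpin.

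The ratios that leave out miR-194-5p showed smaller differences relative to their spread. The mean log2 ratio of miR-192-5p to miR-192-3p was 11.1 ± 0.140 among males and 11.2 ± 0.162 among females (SD, n = 6 per sex, exact permutation p = 0.511, adjusted p = 0.511). That of miR-192-5p to miR-194-2-3p was 9.10 ± 0.184 among males and 9.25 ± 0.103 among females (exact permutation p = 0.0844, adjusted p = 0.19). That of miR-215-5p to miR-192-5p, which share a seed, was -11.4 ± 0.479 among males and -11.6 ± 0.316 among females (exact permutation p = 0.422, adjusted p = 0.475).

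The table gives miR-194-5p a row at each locus, and the division between them was uneven. Of 1312554 counts, 470758 stood at the chromosome 1 locus, or 35.9%. In male livers the share at chromosome 1 was 36.0, 37.2, 34.2, 35.4, 33.3 and 29.8% in males 1 to 6. In female livers it was 36.8, 37.3, 36.2, 35.3, 38.5 and 37.9% in females 1 to 6. Of the males, 5 of 6 were below the female median and 3 were below every female, and male 6 was the lowest. Males averaged 34.3 ± 2.60% and females 37.0 ± 1.14% at chromosome 1 (SD, n = 6 per sex), which put males minus females at -2.69 percentage points (exact permutation p = 0.0281). As a log2 ratio of the loci, the difference was -0.17 (adjusted p = 0.0844, exact permutation test, as above over 9 ratios) and -0.11 without male 6 (adjusted p = 0.117). Exact 95% intervals for a liver's share were narrow, for example 29.5 to 30.1% in male 6, and cover counting error only.

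Tested as rows of their own by edgeR's quasi-likelihood test, the chromosome 1 row of miR-194-5p gave -0.30 as log2 fold change (adjusted p = 0.0895) and the chromosome 19 row -0.12 (adjusted p = 0.59). The authors' deposited table gives -0.25 for the chromosome 1 row and -0.08 for the chromosome 19 row, each with an FDR of 1. The FDR in the authors' deposited table is also 1 for every other row of the members. Among 25 names with counts at exactly 2 loci and at least 300 counts at each, miR-194-5p had the largest chi-square per degree of freedom of the split over the 12 livers, at 232 against a median of 1.28. Because that value grows with counts, the SD of the split is also given. It was 2.37 percentage points, and 6 other names had an SD at least as large. Those 6 names were far rarer, with at most 4823 counts at a locus. Their chi-square, taken the same way, lay between 0.304 and 2.36. In miR-26a-5p and let-7f-5p, the names nearest to miR-194-5p in counts, the SD was 1.40 and 0.656 percentage points. The part of counting error in these SDs was not tested. The 3p arms divide differently from the 5p rows, with 35.9% of miR-194-5p counts at chromosome 1 beside 0.110% of the 3p counts. Summed over the livers, the larger locus held 50.0% of counts in miR-26a-5p and 53.4% in let-7f-5p, beside 64.1% in miR-194-5p. Of the 25 names, 3 including miR-194-5p had a larger locus with at least that share. How reads without a distinguishing base were placed is not given in the sources used here. Whether the 35.9% is the output of Mir194-1 was not tested.

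**Figure D4:**
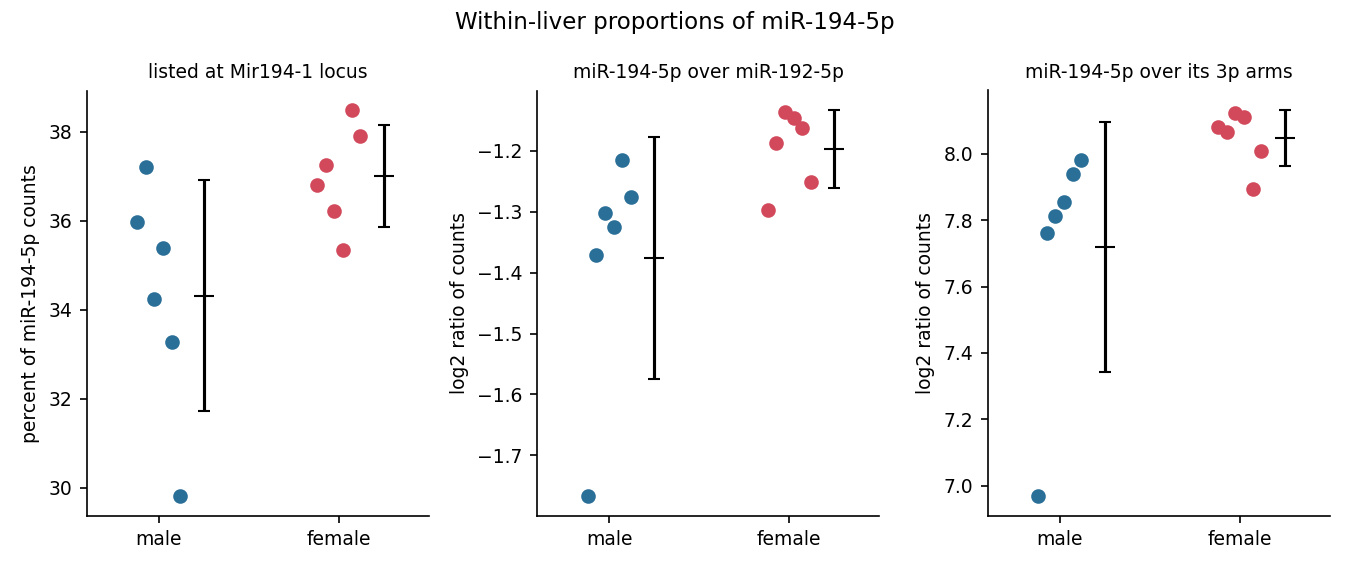
Within-liver measures of miR-194-5p in 6 male (blue, left) and 6 female (red, right) livers with mean and SD in black: the percent of its counts listed at the Mir194-1 locus, the log2 ratio to miR-192-5p and the log2 ratio to the sum of its 3p arms (the axes do not start at 0). Males average lower in all 3, with male 6 the lowest in the first and male 1 in the other 2. None passed after adjustment over 9 ratios, some of which rest on arms near the floor.

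Across the 12 livers, 10 pairs of tested members were compared by correlation of log2 CPM, with 100000 permutations each. miR-192-5p and the summed miR-194-5p had a Pearson r of 0.86 (permutation p = 0.0169, adjusted over the 10 pairs p = 0.0844) and a Spearman rho of 0.329 (permutation p = 0.295, adjusted p = 0.738). Without male 1 and male 3, the livers farthest from the median of miR-192-5p, r was 0.289 (permutation p = 0.42). Leaving out the extremes of an axis narrows its range, which can by itself lower r. Within the sexes r was 0.966 in males and 0.314 in females (n = 6 each). With scaling by total counts alone the pair had an r of 0.853 and a rho of 0.867 (permutation adjusted p = 0.0012 and 0.0058). Centred on the mean of the sex, the pair had an r of 0.898 and a rho of 0.72 (permutation adjusted p = 0.0078 and 0.0552). miR-192-3p and miR-194-5p had an r of 0.693 and a rho of 0.65 (permutation p = 0.00673 and 0.0256, adjusted p = 0.0673 and 0.192). With values centred on the mean of their sex that r was 0.826 (permutation adjusted p = 0.0017), and without female 1 and male 1 the uncentred r was 0.547 (permutation p = 0.101).

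In the other correlations described, miR-194-5p is again the sum of its loci. miR-194-5p and miR-194-2-3p had an r of -0.45 (permutation p = 0.118, adjusted p = 0.237), which was 0.238 without male 1 and male 2. miR-194-5p and miR-215-5p had an r of -0.13 (permutation test, adjusted p = 0.829). miR-215-5p and miR-194-2-3p, from different chromosomes, had an r of 0.6 and a rho of 0.615 (permutation p = 0.0402 and 0.0383, adjusted p = 0.108 and 0.192). miR-192-5p and miR-192-3p had an r of 0.605 and a rho of 0.559 (permutation p = 0.043 and 0.064, adjusted p = 0.108 and 0.213), with an r of 0.14 without male 1 and male 3.

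The names whose levels were most like the guides were picked by the highest Pearson r of log2 CPM over the 12 livers among 296 other names with a mean of at least 10 CPM, and their r is a description. For miR-194-5p these were miR-32-5p (r 0.919), miR-33-5p (r 0.915), which represses cholesterol export, miR-142b and miR-142a-3p (r 0.907 each), which the table lists at overlapping positions and which both averaged 214 CPM, and miR-362-3p (r 0.9). The same 5 names were the most like miR-192-5p, with r between 0.847 and 0.869. Male 1 was low in both guides, and without it r for miR-192-5p and these names lay between 0.172 and 0.393. For miR-194-5p it was then 0.118 with miR-32-5p, 0.546 with miR-33-5p, -0.11 with both miR-142 names and -0.34 with miR-362-3p. For miR-215-5p the names were miR-30c-2-3p (r 0.836, rho 0.93), miR-1839-3p (r 0.786, rho 0.776), miR-378a-3p (r 0.657), miR-30a-3p (r 0.653) and miR-3065-3p (r 0.635). With scaling by total counts alone the r of miR-215-5p with miR-30c-2-3p was 0.746 and with miR-1839-3p 0.715. Without male 1, which was at neither end of the range of miR-215-5p, these r were 0.84 and 0.786. miR-215-5p and miR-192-5p, which share a seed, had an r of 0.128 (permutation p = 0.675, adjusted p = 0.829).

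**Figure D5:**
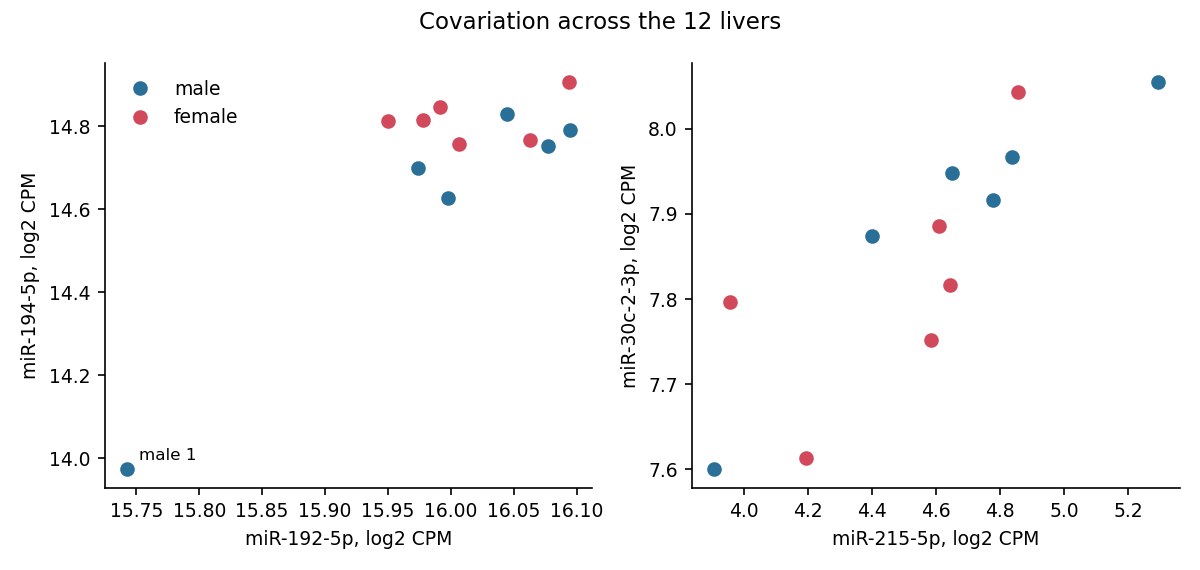
Log2 CPM of miR-194-5p against miR-192-5p (left) and of miR-30c-2-3p against miR-215-5p (right) in 6 male (blue) and 6 female (red) livers, 1 point per liver. On the left male 1 lies apart from the other 11 livers (r 0.86 with all 12), while on the right the livers spread along the whole range (r 0.836).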

How the data were processed

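Total liver RNA went into libraries from a strand-specific small RNA kit, per the labels' protocols. Named in the submitters' processing notes are edgeR, bedtools, Bowtie2 and Trim Galore, without versions, and the mm9 build. The sources used here do not give settings, the microRNA release, the use of strand in counting or the placing of reads that match several loci. The authors deposited whole-number read counts for 2044 mature microRNA loci in each liver, not normalized. Per the file headers, the authors' own edgeR comparison gives a log2 fold change (male over female), an average level as log2 CPM, an FDR and the p-value behind it, which are quoted only where named.

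Rows of the same name were summed. Some pairs of different names had the same counts, for example 12317 over all livers for both miR-486a-3p and miR-486b-5p. Such pairs were kept as separate names in the library totals, the tested names, the hairpins and the lists. Names were filtered with filterByExpr by sex, scaled by TMM and tested with edgeR 4.0.16 in R 4.3.3 (glmQLFit and glmQLFTest), with Benjamini-Hochberg adjustment over 419 names and a threshold of 0.05. Standard errors were the log2 fold change over the square root of F. DESeq2 1.42.0 was an alternative. Log2 CPM used a prior count of 2, and log2 ratios added 0.5 counts to both terms. Shares and ratios were compared by exact permutation. The same shares of all tested names, added after seeing the data, give the background. The fit was tested on simulated counts. The text names all members, the 5 names most like each guide, their neighbours in level, names sharing a seed, and at most the 2 names with the smallest p of each list, and miR-34a-5p, miR-21a-5p and miR-122-5p were added after their values were seen. The members and lists were chosen with earlier results of these data known. Sequences came from RefSeq, gene overlaps from GENCODE M21.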

Additional observations from a re-analysis of the deposited data

Results flagged for a closer look

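Within each sex, the highest and lowest liver were checked against the others by the gap to the nearest liver as a share of the whole range, against Dixon's 95% critical value, in 42 groups of 6 values. Chance passes that limit in about 1 in 20 groups. Male 1 was the low liver in all 5 that passed, which are related measures of the same guides. miR-192-5p was 54819 CPM in male 1 and 64373 CPM in the next male. miR-194-5p was 16107 CPM in male 1 and 25309 CPM in the next male. The log2 ratio of miR-194-5p to miR-192-5p was -1.77 in male 1, with the next male at -1.37. The log2 ratio of miR-194-5p to the sum of its 3p arms was 6.97 in male 1, with the next male at 7.76. The log2 ratio of miR-192-5p to miR-194-2-3p was 8.74 in male 1, with the next male at 9.11. Male 1 had the lowest total of the 12 livers, 2953955 counts, and male 6 the next, 2967748 counts. The part of depth in these values was not tested.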

How the results depend on the processing

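Under other settings 98 values kept their direction and side of the threshold, 11 changed sign, 5 became called, 2 lost their call and 5 counts moved. With a liver left out, 232 values kept both, 6 changed sign, 6 became called, 7 lost their call and 1 count moved. The log2 fold change of miR-192-5p was 0.024 with no filter on low counts and -0.131 with scaling by total counts, against -0.02. It ranged from -0.049 to 0.012 with a liver left out. That of miR-192-3p was -0.061 with scaling by total counts, against 0.047, and ranged from -0.022 to 0.10 with a liver left out. No member was called in the fits with DESeq2, scaling by total counts, TMM without miR-21a-5p and miR-122-5p, other filters, separate loci or a liver left out. The number of all names called ranged from 47 (without male 3) to 82 with a liver left out, against 71.

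Taking miR-21a-5p from the total made the share of males minus females -0.34 percentage points for miR-194-5p, -0.35 for all members (neither called) and 0.000154 for miR-192-3p. With miR-122-5p left out, it was -1.60 for miR-192-5p (called), -0.000977 for miR-194-2-3p and -5.1e-05 for miR-215-5p. With a liver left out, these differences ranged from -1.32 to -0.88 for all members, -0.70 to -0.49 for miR-192-5p (called only without female 3), -0.000239 to 0.000400 for miR-194-2-3p and -5.2e-05 to 0.000347 for miR-215-5p. The log2 ratio of miR-192-5p to miR-192-3p differed by 0.00488 between medians. With a liver left out, that of miR-194-5p to its 3p arms ranged from -0.38 to -0.18 (called without male 2, 5 or 6), that to miR-192-5p from -0.21 to -0.10 (called without male 5) and that of the loci from -0.21 to -0.11 (called without male 2).

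Scaling by total counts gave r of 0.853 for miR-192-5p with miR-194-5p and 0.72 for miR-192-3p with miR-194-5p (both called), 0.00667 for miR-192-5p with miR-194-2-3p and -0.078 for miR-192-5p with miR-215-5p. Centring on sex gave 0.898 and 0.826 for the first pairs (both called). Without the 2 farthest livers, r was 0.34 for miR-192-5p with miR-194-2-3p, 0.238 for miR-194-5p with miR-194-2-3p and 0.313 for miR-194-5p with miR-215-5p. In the lists, total-count scaling called 1 epithelial, 1 erythroid and 1 endothelial name, and DESeq2 1 epithelial and 1 erythroid name, against 0 each.

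With the replicate number as a block, 48 names were called and no member. Nothing in the labels pairs livers by number, and same-numbered livers had correlations of deviations between -0.13 and 0.30. In 0 of 6 males was the best match the female of the same number. The causes of these changes were not tested. Depth limits miR-215-5p, miR-215-3p and miR-194-1-3p most.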
